A study of Mus musculus with 10 samples.

Results

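The lysophospholipid acyltransferases of the LPCAT and MBOAT groups were followed in jejunum of Pcyt1a knockouts and controls. The 8 genes Mboat1, Mboat2, Mboat7, Lpcat1, Lpcat2, Lpcat3, Lpcat4 and Lpgat1 were taken by name, and all 8 were found among the 22180 genes that the array annotation names singly. Each had 1 probe set, and 0 probe sets were shared with another gene, so there was no choice between probe sets. The family was chosen with the knockout and control values of these arrays in view, so its members count as selected on that contrast. The differences between the groups are therefore given as a description and carry no test, and counts of limma calls stand only beside the share of all genes.

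RNA came from the jejunum of female mice aged 10 to 12 weeks, with 1 Affymetrix whole-transcript array for each of 10 samples. The 5 knockouts (Pcyt1aLoxP/LoxP;VilCreERT2, arrays 1 to 5) carried LoxP sites in both copies of Pcyt1a and a Cre recombinase that tamoxifen switches on, driven by the promoter of villin, a gene of the gut epithelium. The 5 controls (Pcyt1aLoxP/LoxP, arrays 6 to 10) carried the LoxP sites without Cre. Both groups had tamoxifen (5 days), then high fat food (4 days) and a fast overnight, before a piece of 3 cm was taken from the middle of the small intestine. The source labels of the controls repeat the wording of the knockouts, against their titles and genotypes, and the series text speaks of re-feeding, which the sample labels do not. The labels do not state whether the samples of a group were separate mice. Every p-value therefore treats the samples as the units, and the spread between them may be technical.

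Pcyt1a encodes the enzyme that sets the pace of new phosphatidylcholine synthesis through CDP-choline. Phosphatidylcholine is also rebuilt in the Lands cycle, in which a phospholipase removes a fatty acid from a phospholipid and a lysophospholipid acyltransferase puts another in its place. Mboat1, Mboat2, Mboat7 and Lpcat3 belong to the membrane-bound O-acyltransferase (MBOAT) family. Lpcat1, Lpcat2, Lpcat4 and Lpgat1 belong to the unrelated AGPAT family. In the intestine Lpcat3, which adds polyunsaturated fatty acids to lysophosphatidylcholine, is known as the main enzyme of the cycle and as a target of the nuclear receptor LXR.

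The arrays were alike in scale, with median log2 intensities of 5.77 to 5.89, and correlations between arrays across genes of 0.973 to 0.991. Pcyt1a read 7.14 to 7.80 on the knockouts and 9.18 to 9.55 on the controls, a log2 fold change of -1.93 (SE 0.13). The 14 measured enterocyte markers had mean log2 intensities over the 10 arrays from 11.26 (Treh) to 13.77 (Apoa4). No other tissue or gut segment was set beside them, so they do not test the label of jejunum. The piece was taken as a mixture of cell types. The mean log2 intensity of 12 smooth muscle markers ran from 6.41 on control 8 to 10.13 on control 7. Fewer cells of a type and less RNA per cell cannot be told apart in such samples. Intensities of different genes depend on their probes, so levels were compared only within a gene.

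The promoter sequences of the members that the results turn on are shown first, because Mboat1 and Lpcat4 varied together and Lpcat3 alone separated the groups. They are RefSeq windows of the mouse assembly GRCm38.p6, on the plus strand and 5′ to 3′, and they stop at the base before the annotated gene start. Capitals mark every match to the GC box (GGGCGG) and the CCAAT box (CCAAT) on either strand. The stretches are chr13:30136240-30136450 for Mboat1 (211 bases), chr2:112239591-112239840 for Lpcat4 (250 bases) and chr6:124662854-124663093 for Lpcat3 (240 bases).
Mboat1: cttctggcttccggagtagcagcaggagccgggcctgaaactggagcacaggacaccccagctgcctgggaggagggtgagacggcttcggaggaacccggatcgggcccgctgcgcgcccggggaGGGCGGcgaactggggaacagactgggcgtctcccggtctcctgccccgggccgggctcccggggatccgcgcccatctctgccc
Lpcat4: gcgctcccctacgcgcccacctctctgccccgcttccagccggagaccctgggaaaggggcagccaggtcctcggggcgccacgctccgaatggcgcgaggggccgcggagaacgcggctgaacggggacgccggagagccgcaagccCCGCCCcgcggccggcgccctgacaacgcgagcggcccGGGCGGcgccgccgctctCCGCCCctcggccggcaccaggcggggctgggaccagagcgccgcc
Lpcat3: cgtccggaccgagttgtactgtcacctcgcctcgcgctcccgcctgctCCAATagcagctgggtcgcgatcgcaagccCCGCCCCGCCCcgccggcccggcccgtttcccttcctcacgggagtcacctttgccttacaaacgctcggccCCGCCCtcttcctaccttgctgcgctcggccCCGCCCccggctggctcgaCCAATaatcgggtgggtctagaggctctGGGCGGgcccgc

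The printed stretch of Mboat1 held 1 GC box and 0 CCAAT boxes, that of Lpcat4 held 3 and 0, and that of Lpcat3 held 5 and 2, with 2 of its GC boxes overlapping by 1 base. The last bases before the RefSeq starts, which are not printed, held 1 more CCAAT box each for Mboat1 and Lpcat3. Over the 250 bases before each RefSeq start, the 8 genes had 9 windows, of which Lpgat1 had 2. A GC box was found in 9 of 9 windows, against 32.7% of 32851 windows of the same length in the table. A CCAAT box was found in 4 of 9, those of Mboat1, Mboat2, Lpcat2 and Lpcat3, against 33.8%, and a TATA box (TATAAA, both strands) in 1 of 9, that of Lpcat2, against 12.4%. The GC content was 73.2% for Mboat1, 79.6% for Lpcat4 and 70.0% for Lpcat3, against a median of 52.4% over all windows, and it was lowest for Lpcat2 at 51.2%. No window held these letters of the sterol regulatory element (TCACNCCAC, in 1.05% of all windows) or the E-box (CACGTG, in 6.02%), each searched on both strands. These matches describe letters in a short window and say nothing of binding.

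Of the 8 acyltransferases, 7 had a higher mean in the knockouts and Mboat2 had a lower one. The median log2 fold change was 0.18 for the 8 genes and -0.01 for all 22180 genes, of which 46.8% had a positive value. By limma with Benjamini-Hochberg adjustment over all genes, 0 of 8 were called at an adjusted p under 0.05, where 0.0271% of all genes were called, 0.00451% higher and 0.0225% lower. At an unadjusted p under 0.05 there were 4 of 8, all higher in the knockouts (Mboat1, Lpcat2, Lpcat3 and Lpcat4), against 8.29% of all genes higher, 5.56% lower and 13.9% in either direction. Values of knockouts and controls did not overlap in 1 of the 8, Lpcat3, which was higher in the knockouts, against 1.64% of all genes higher, 0.965% lower and 2.6% in either direction. Nothing is read from these shares, since the genes were chosen with the contrast known.

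**Figure D1:**
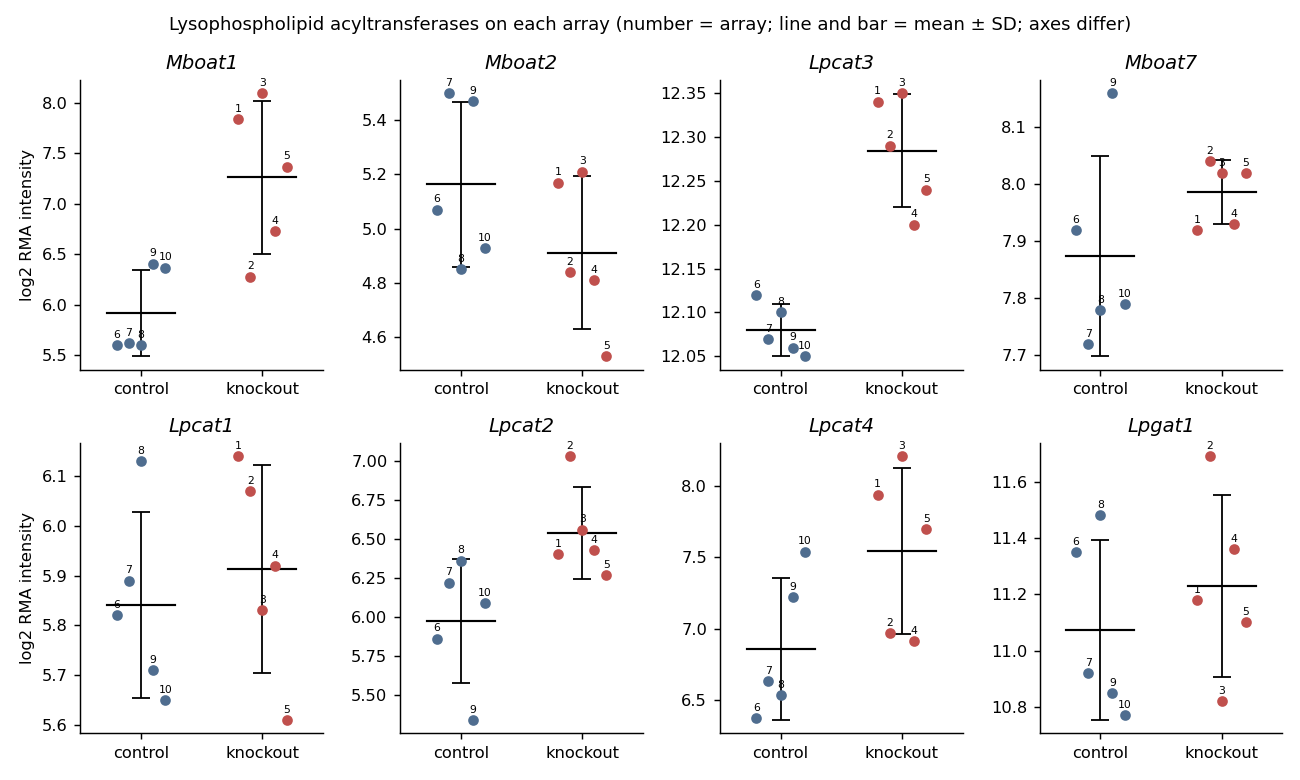
Log2 RMA intensity (vertical axis, a separate scale for each gene) of the 8 acyltransferases on 5 control and 5 knockout arrays; points are arrays with their numbers, and the line and bar are the group mean ± SD. Lpcat3 separates the groups with 0.08 between the lowest knockout and the highest control, whereas Mboat1 is higher by far more on average but overlaps through knockout 2.

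Among the MBOAT enzymes, Mboat1, which favours oleic acid as donor and lysophosphatidylethanolamine and lysophosphatidylserine as acceptors, had the widest difference of the family. Its log2 intensity read 7.84, 6.28, 8.10, 6.73 and 7.37 on knockouts 1 to 5 and 5.60, 5.62, 5.60, 6.41 and 6.37 on controls 6 to 10. Knockouts 1, 3, 4 and 5 lay above every control, and knockout 2 lay below controls 9 and 10. The means were 7.26 ± 0.76 and 5.92 ± 0.43 (SD, n = 5 each). The log2 fold change was 1.34 (SE 0.33, 95% interval 0.63 to 2.05), or a 2.54-fold higher level. Mboat1 ranked 13 from the top among the 22180 genes by this difference. Without knockout 2, the knockout that overlaps the controls, its difference was 1.59 and it was among 452 of 22180 genes that the limma fit then called. Without any other single array the difference was 1.14 to 1.48 and Mboat1 was not called. Since the gene was chosen on this contrast, nothing is read from that call.

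Lpcat3 had a small difference that set every knockout array above every control array. The knockouts read 12.34, 12.29, 12.35, 12.20 and 12.24 and the controls 12.12, 12.07, 12.10, 12.06 and 12.05 in log2 intensity. All 5 knockouts lay above all 5 controls, and the gap between the groups was 0.08, against a range of 0.15 within the knockouts and 0.07 within the controls. The means were 12.28 ± 0.06 and 12.08 ± 0.03 (SD, n = 5 each). The log2 fold change was 0.20 (SE 0.07, 95% interval 0.05 to 0.36), or 1.15-fold. The deposited values carry a rounding of 0.01, which is small beside that gap. The scores of 2 marker lists separated the groups as fully, in the other direction. That of 11 tuft cell markers was 6.04 to 6.21 in log2 intensity on the knockouts and 6.38 to 6.55 on the controls, and 0 of the 11 had a higher mean in the knockouts. That of 15 enteroendocrine markers was 6.49 to 6.78 and 6.89 to 7.01, and 3 of the 15 had a higher mean in the knockouts. Within groups Lpcat3 had r = -0.11 with the tuft cell score and -0.29 with the enteroendocrine score, and their part in its difference was not tested.

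Mboat2, which adds oleic acid to lysophosphatidylcholine and lysophosphatidylethanolamine, was the 1 member with a lower mean in the knockouts. It read 5.17, 4.84, 5.21, 4.81 and 4.53 on the knockouts and 5.07, 5.50, 4.85, 5.47 and 4.93 on the controls, and the groups overlapped. The log2 fold change was -0.25 (SE 0.17, 95% interval -0.61 to 0.11), and it was -0.16 without knockout 5 and -0.33 without control 8. The 2 highest controls, 7 and 9, also had the highest smooth muscle scores. The score of 12 smooth muscle markers, their mean log2 intensity, read 10.13 for control 7 and 8.87 for control 9, while the other arrays lay between 6.41 and 8.15. With this score as a covariate the difference of Mboat2 was -0.16 (SE 0.13), and without knockout 1, control 7 and control 9 it was -0.10 (SE 0.16). The part of smooth muscle in the difference of Mboat2 was not tested.

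Mboat7, the enzyme that puts arachidonic acid on lysophosphatidylinositol, differed little. Its knockouts lay within 0.12 of each other, at 7.92, 8.04, 8.02, 7.93 and 8.02, and its controls spread over 0.44, at 7.92, 7.72, 7.78, 8.16 and 7.79. Control 9 was the highest of all 10 arrays, while controls 7, 8 and 10 lay below every knockout. The log2 fold change was 0.11 (SE 0.09, 95% interval -0.09 to 0.32), and it was 0.07 without control 7 and 0.18 without control 9.

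Among the AGPAT enzymes, Lpcat4, which acts on lysophosphatidylethanolamine and lysophosphatidylcholine, had the largest mean difference. It read 7.94, 6.97, 8.21, 6.91 and 7.70 on the knockouts and 6.37, 6.63, 6.53, 7.22 and 7.54 on the controls. Knockouts 1, 3 and 5 lay above every control, while knockouts 2 and 4 lay below controls 9 and 10. The log2 fold change was 0.69 (SE 0.29, 95% interval 0.06 to 1.32), or 1.61-fold. The same knockouts, 2 and 4, were the lowest for Mboat1, and the same controls, 9 and 10, were the highest.

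Lpcat2 makes platelet-activating factor as well as phosphatidylcholine and is known from macrophages and other inflammatory cells. It read 6.40, 7.03, 6.56, 6.43 and 6.27 on the knockouts and 5.86, 6.22, 6.36, 5.34 and 6.09 on the controls. Only the pair of knockout 5 and control 8 was out of order, since 24 of the 25 pairs of a knockout and a control had the knockout higher. The log2 fold change was 0.56 (SE 0.19, 95% interval 0.14 to 0.99), or 1.48-fold, and it was 0.41 without control 9. Of 12 macrophage markers 10 had a higher mean in the knockouts. Their score was 6.99 to 7.58 in log2 intensity on the knockouts and 6.73 to 7.18 on the controls, with means of single markers from 4.26 (Cd163) to 10.16 (Mertk). The score of 10 endothelial markers, all with a higher mean in the knockouts, was 6.35 to 7.06 and 5.53 to 6.44. Their part in the difference of Lpcat2 was not tested.

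Lpcat1, known for the disaturated phosphatidylcholine of lung surfactant, and Lpgat1, first described as an enzyme that acylates lysophosphatidylglycerol, differed by less than their spread. Lpcat1 read 6.14, 6.07, 5.83, 5.92 and 5.61 on the knockouts and 5.82, 5.89, 6.13, 5.71 and 5.65 on the controls, a log2 fold change of 0.07 (SE 0.12, 95% interval -0.19 to 0.34). Lpgat1 read 11.18, 11.69, 10.82, 11.36 and 11.10 on the knockouts and 11.35, 10.92, 11.48, 10.85 and 10.77 on the controls, a log2 fold change of 0.16 (SE 0.18, 95% interval -0.23 to 0.55). With single arrays left out, the difference of Lpcat1 was 0.02 (without knockout 1) to 0.15 (without knockout 5) and that of Lpgat1 0.04 (without knockout 2) to 0.26 (without knockout 3). In both genes the groups covered nearly the same range. The intervals leave room for a change of about the size seen in Lpcat3 in either direction.

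**Figure D2:**
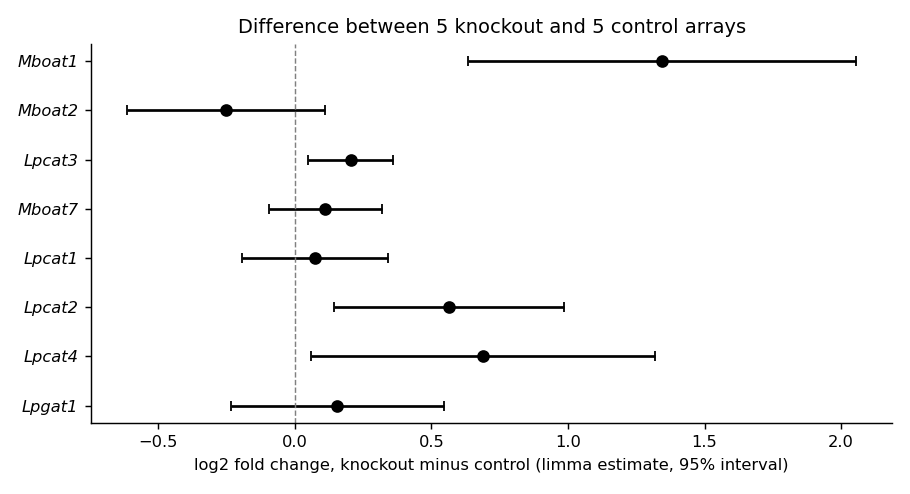
Log2 fold change, knockout minus control, of the 8 acyltransferases (horizontal axis), as the limma estimate with its 95% interval over 5 and 5 arrays; the dashed line marks 0. The intervals of Mboat1 (0.63 to 2.05), Lpcat2, Lpcat3 and Lpcat4 lie above 0, and that of Lpcat3 (0.05 to 0.36) is the narrowest.

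The spread between arrays of a group, apart from the group difference that the choice of the genes used, was then compared between the members. Members and marker lists were chosen with earlier results of these data known, which the adjusted p-values of the correlations do not take into account. Each value was centred on its group mean, and Pearson correlations over the 10 arrays were tested by a two-sided exact permutation of the arrays within groups, with Benjamini-Hochberg adjustment over the 28 pairs. Mboat1 and Lpcat4 varied together (r = 0.94, exact permutation p = 0.00139, adjusted 0.0389), and it was the 1 pair that passed. The rank correlation within groups was 0.89 (exact permutation p = 0.00528), and by rank 0 of the 28 pairs passed after adjustment. With Mboat1 on the horizontal axis, r was 0.96 without knockouts 2 and 3, which lie farthest from its median. With each array left out in turn r was 0.93 to 0.96, and the adjusted exact permutation p stayed under 0.05 without control 8 (0.0389) or control 9 (0.0454) and was 0.0583 to 0.194 without each of the others.

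Lpgat1 ran against both of these genes, short of the threshold. Its correlation was -0.84 with Mboat1 (exact permutation p = 0.00556, adjusted 0.0622) and -0.85 with Lpcat4 (exact permutation p = 0.00667, adjusted 0.0622), and these became -0.68 without knockouts 2 and 3 and -0.75 without knockout 3 and control 10. On knockout 2 and on controls 6 and 8, where Lpgat1 was 0.46, 0.28 and 0.41 above its group mean, Mboat1 was 0.98, 0.32 and 0.32 below its own. Lpcat3 followed neither, with r = 0.33 to Mboat1, 0.27 to Lpcat4 and 0.02 to Lpgat1.

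**Figure D3:**
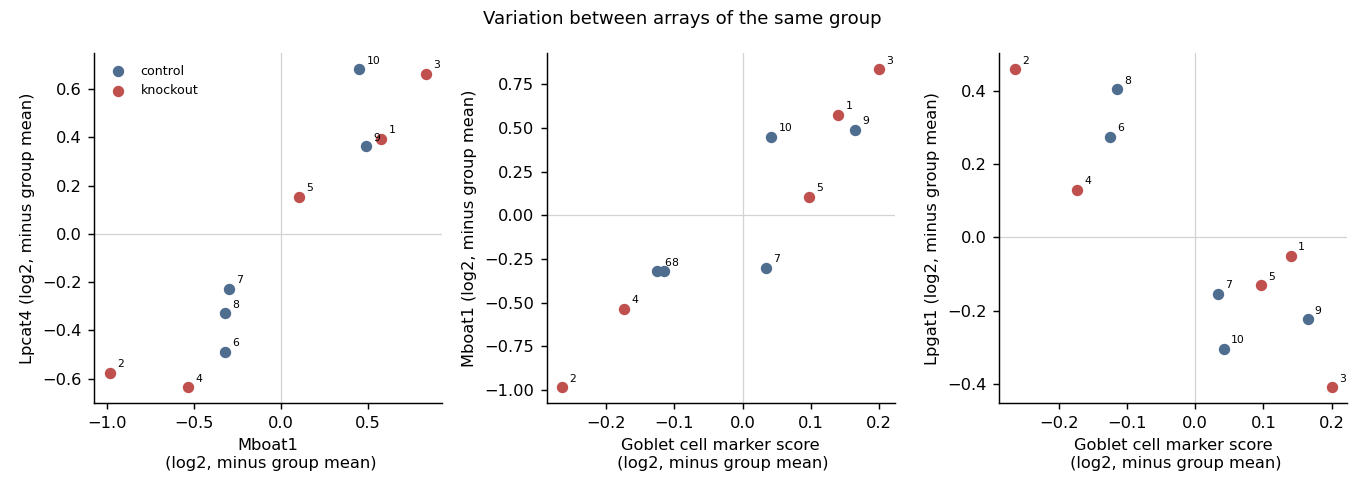
Log2 values minus the group mean for 5 control and 5 knockout arrays (numbered points): Lpcat4 against Mboat1 on the left, and Mboat1 and Lpgat1 against the score of the goblet cell markers in the middle and on the right. Mboat1 and Lpcat4 climb together (r = 0.94), Mboat1 climbs with the goblet score (r = 0.93) and Lpgat1 declines with it (r = -0.88), in arrays of both groups.

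The same centred values were set against 16 lists of cell type markers, each summarised as the mean log2 intensity of its members on an array. Of the 128 pairs of a member and a list, 3 passed after adjustment, and 23 had an unadjusted exact permutation p under 0.05. By rank correlation 1 pair passed, and 0 passed with median centring, with a further quantile normalization or without the 2 arrays farthest from each score's median. Mboat1 was higher on arrays with a higher goblet cell score (r = 0.93, exact permutation p = 0.000139, adjusted 0.0178; rank correlation 0.99, exact permutation p = 0.000278). Lpgat1 was lower on those arrays (r = -0.88, exact permutation p = 0.00104, adjusted 0.0444; rank correlation -0.85, exact permutation p = 0.00931). Lpgat1 was also higher on arrays with a higher score of T and intraepithelial lymphocytes (r = 0.95, exact permutation p = 0.000486, adjusted 0.0311; rank correlation 0.95, exact permutation p = 0.00125).

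The goblet score, from 10 measured markers, was 9.89 to 10.36 in log2 intensity on the knockouts and 10.06 to 10.35 on the controls, and its mean was 0.02 lower in the knockouts. That small difference holds opposite ones, with 4 of the 10 markers higher in the knockouts. Muc2, Tff3, Clca1, Fcgbp, Zg16 and Spdef were at -0.28, -0.43, -0.45, -0.33, -0.23 and -0.05 in log2 fold change. Ccl9 was at 0.82, Spink4 at 0.43, Agr2 at 0.14 and Retnlb at 0.14. Muc2 and Fcgbp did not overlap between the groups, where 0.965% of all genes were lower in the knockouts without overlap. Of the 10 markers, Spink4, Ccl9 and Agr2 varied most within groups, with SDs of 0.59, 0.47 and 0.40 in log2 intensity against 0.15 for Muc2 and 0.18 for Tff3. Of the single markers, Mboat1 had r = 0.97 with Spdef and 0.96 with Agr2, but 0.49 with Muc2, 0.33 with Tff3 and -0.22 with Fcgbp, given as a description. Lpgat1 had r = -0.85 with Spink4, -0.81 with Spdef and -0.80 with Agr2. Its r was -0.44 with Muc2, -0.55 with Tff3, -0.05 with Zg16 and 0.16 with Fcgbp, also given as a description.

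The goblet score moved with the score of Paneth cells, the defensin-secreting cells of the crypt base (r = 0.91 within groups), and against that of T and intraepithelial lymphocytes (r = -0.84). These lists thus share much of their variation, and their separate parts were not tested. Without knockouts 2 and 4, farthest from the median goblet score, r was 0.80 for Mboat1 and -0.86 for Lpgat1. Without knockouts 2 and 3, farthest from the median lymphocyte score, it was 0.93 for Lpgat1.

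With each array left out in turn, r of Mboat1 with the goblet score was 0.89 to 0.97. Its adjusted exact permutation p was 0.0222 to 0.0444 without knockout 4 or controls 6, 7 or 8 and 0.0593 to 0.215 without each of the others. For Lpgat1, r with the goblet score was -0.92 to -0.82 and its adjusted exact permutation p was 0.0593 to 0.293, over the threshold without any 1 array. Its r with the lymphocyte score was 0.94 to 0.98, with an adjusted exact permutation p of 0.0222 to 0.0444 without knockout 4 or controls 6 or 8 and 0.0711 to 0.151 without each of the others.

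The other members gave no pair that passed after adjustment. Lpcat4 had r = 0.88 with the goblet score (exact permutation p = 0.00479, adjusted 0.0889), 0.80 with the Paneth score (exact permutation p = 0.0109, adjusted 0.140) and -0.84 with the lymphocyte score (exact permutation p = 0.00514, adjusted 0.0889). Further pairs of Mboat1 and Lpgat1 did not pass either. Mboat1 had r = 0.83 with the Paneth score (exact permutation p = 0.00556, adjusted 0.0889) and -0.85 with the lymphocyte score (exact permutation p = 0.00375, adjusted 0.0889). Lpgat1 had r = -0.91 with the Paneth score (exact permutation p = 0.00333, adjusted 0.0889). Lpcat2 had r = 0.77 with the macrophage score (exact permutation p = 0.0186, adjusted 0.159) and 0.81 with the endothelial score (exact permutation p = 0.0163, adjusted 0.159). These became 0.60 without knockout 2 and control 7 and 0.49 without knockout 5 and control 9. Lpcat1 had r = 0.73 with the macrophage score (exact permutation p = 0.0292, adjusted 0.196), which was 0.92 without knockout 2 and control 7. Mboat2 had r = 0.76 with the fibroblast score (exact permutation p = 0.0110, adjusted 0.140), 0.77 with the smooth muscle score (exact permutation p = 0.0184, adjusted 0.159) and -0.77 with the tuft cell score (exact permutation p = 0.0265, adjusted 0.188). These became 0.77 without knockout 1 and control 7, 0.50 without controls 7 and 9, and -0.66 without knockout 1 and control 7. Lpcat3 was the member with no unadjusted exact permutation p under 0.05 for any list, and its correlations lay between -0.29 and 0.27.

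**Figure D4:**
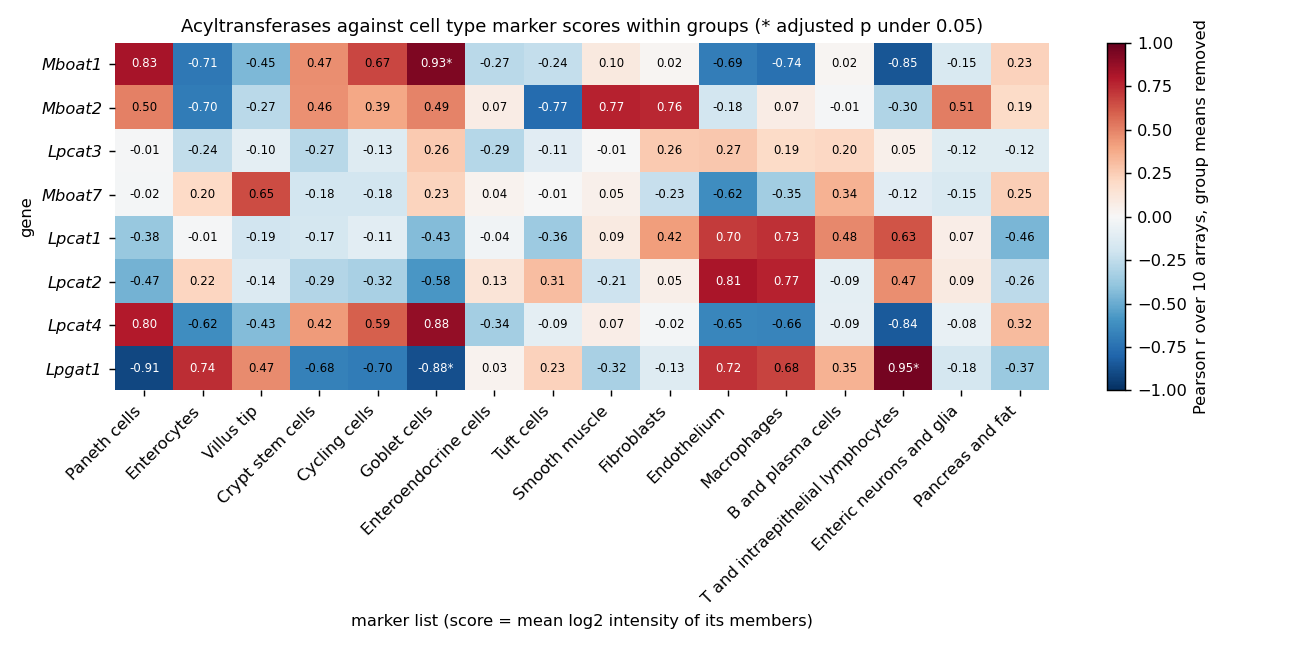
Pearson correlation over 10 arrays, group means removed, between each acyltransferase (rows) and the mean log2 intensity of each of 16 marker lists (columns); colour runs from -1 in blue to 1 in red, and an asterisk marks an adjusted exact permutation p under 0.05. Mboat1 and Lpcat4 have like rows, that of Lpgat1 has the opposite colours for goblet (-0.88) and Paneth scores, and that of Lpcat3 is pale (-0.29 to 0.27).

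The cycling cell score, from 15 measured genes such as Ccna2, Plk1 and Mcm3, was also compared with Mboat1 and Lpcat4. All 15 had a higher mean in the knockouts, and the score was 7.42 to 8.37 in log2 intensity on the knockouts and 6.69 to 7.50 on the controls. Within groups neither pair passed after adjustment. The r with this score was 0.67 for Mboat1 (exact permutation p = 0.0589, adjusted 0.260) and 0.59 for Lpcat4 (exact permutation p = 0.0986, adjusted 0.382). Without knockout 2 and control 6 it was 0.38 for Mboat1 and 0.27 for Lpcat4. With this score as a covariate, which was added once the data had been seen, the difference between the groups was 0.48 (SE 0.40) for Mboat1 and 0.01 (SE 0.38) for Lpcat4, while it was 0.22 (SE 0.11) for Lpcat3, 0.80 (SE 0.30) for Lpcat2, 0.63 (SE 0.22) for Lpgat1 and -0.49 (SE 0.25) for Mboat2. Because the score itself nearly separates the groups, its share and that of the genotype cannot be told apart. The Paneth score overlapped fully between the groups, at 9.15 to 11.65 on the knockouts and 9.23 to 11.28 on the controls. With it as a covariate the difference of Mboat1 was 1.21 (SE 0.20) and that of Lpcat4 was 0.58 (SE 0.19).

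Among all genes, those most like Mboat1 within groups over the 10 arrays were Pgs1 (r = 0.98), which makes the precursor of phosphatidylglycerol and cardiolipin, the tetraspanin Tspan1 (r = 0.98) and Spdef (r = 0.97), a transcription factor of goblet and Paneth cells that is itself in the goblet list. Those most like Lpcat3 were Pdgfb (r = 0.93), the olfactory receptor gene Olfr1535 (r = 0.92) and Casq1 (r = 0.92). These are the 3 highest correlations among all genes, over 10 arrays and are given as a description.

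Genes that work beside these enzymes are given by their medians, whose difference from the acyltransferases was not tested. Counts for these lists and those of the next paragraph stand beside the shares of all genes. Limma called 0.0271% of all genes, and at an unadjusted limma p under 0.05 8.29% were higher and 5.56% lower. The phospholipase A2 and lysophospholipase genes had a median log2 fold change of 0.02 over 27 measured genes, with 0 called by limma and 3 higher at an unadjusted p under 0.05. The acyltransferases that build phosphatidic acid and their kin had a median of 0.00 over 14 genes, with 0 called and 2 higher at an unadjusted p under 0.05. The long-chain acyl-CoA synthetases, which supply the fatty acid, had a median of 0.01 over 8 genes, with 0 called and 1 in each direction at an unadjusted p under 0.05. The MBOAT enzymes with other substrates, such as Dgat1 and Porcn, had a median of -0.06 over 5 genes, with 0 called and 0 at an unadjusted p under 0.05.

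LXR and its targets, the group to which Lpcat3 is known to belong, had a median of -0.02 over 9 measured genes, of which 3 had positive values, 0 were called by limma and 1 was higher at an unadjusted p under 0.05. This was the desaturase gene Scd1, at 9.53 ± 0.59 in the knockouts and 7.83 ± 0.81 in the controls (SD, n = 5 each). Its groups did not overlap, where 1.64% of all genes were higher in the knockouts without overlap. In the CDP-choline and CDP-ethanolamine pathway 1 of 11 measured genes was called, Pcyt1a itself, and 2 were lower at an unadjusted p under 0.05, with a median of -0.07. Against these medians the 8 lysophospholipid acyltransferases stood at 0.18, a value that their choice from these data makes a description only.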

How the data were processed

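The values the authors deposited were probe set intensities on a linear scale. Per the submitters' processing notes, Affymetrix Expression Console 1.4.1.46 was used with RMA, which corrects background and aligns the arrays. The build and annotation of the probe sets were not given in the sources used here. The plan assumed log2 values. Log2 was taken first, and 100% of log2 values fell within 0.001 of a step of 0.01. Of 34472 probe sets, 23521 had 1 gene symbol in the platform annotation, 1814 had several and 9137 had none, and only the first were used. A gene with several probe sets kept the one with the highest mean, which left 22180 genes, with no intensity filter.

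Groups came from the sample titles. The contrast of knockout and control was fitted in R 4.3.3 by limma 3.58.1 (lmFit with eBayes, two-sided, Benjamini-Hochberg over all genes, called at an adjusted p under 0.05). Correlations used values centred on group means and all 14400 rearrangements of arrays within groups, for which the smallest possible p is 6.94e-05, with Benjamini-Hochberg adjustment over 28 pairs of members and 128 pairs of a member and a marker list. Rank correlations used ranks within groups. The scripts were tested on simulated data. The members, the marker and pathway lists and the alternatives were chosen with earlier results of these data known. Named were all members, called or non-overlapping genes of the pathway lists, up to 4 each, and the 3 genes most like Mboat1 and Lpcat3. Other genes are named as examples of a list. For arrays, their number limits the precision. Promoter windows and coordinates came from RefSeq tables of GRCm38.p6.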

Additional observations from a re-analysis of the deposited data

How the results depend on the processing

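No paired analysis was possible because the replicate numbers of the groups, 1 to 5 and 6 to 10, are not shared. The 0 members called became 1, Mboat1, with the Paneth score as a covariate, and 0 to 1 with an array left out, the 1 without knockout 2; 0 were called under the other alternatives. Both fits called many more genes of all kinds, and as the members were selected on this contrast the call supports nothing. The 6 genes called among all genes became 2 with median centring, with a further quantile normalization or without the 3 arrays highest in smooth muscle, 388 with the Paneth covariate, 1 with the cycling cell covariate chosen after seeing the data, and 2 to 452 with an array left out. The 3 member and marker pairs that passed became 1 by rank correlation, 0 with median centring, 0 with quantile normalization, 0 without the 2 arrays farthest from each score's median, and 0 to 3 with an array left out. The 1 member pair became 0 by rank correlation and 0 to 3 with an array left out. The log2 fold changes of Mboat1, Mboat2, Mboat7, Lpcat2, Lpcat3, Lpcat4 and Lpgat1 kept their sign in 20 of 20 alternatives, and that of Lpcat1 in 19, reading -0.01 without the 3 smooth muscle arrays. Leaving out an array leaves fewer rearrangements, so a smaller count there does not by itself show a weaker relation. No background or detection values were used here, so whether a member such as Mboat2 lay above background is not known.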
